A study of Mus musculus with 1 sample.

Results

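Cholesterol synthesis and its control were described through 28 genes chosen by name from the pathway, of the 25661 genes in the count table. The list holds 7 genes of the mevalonate steps, 11 genes of the steps from farnesyl diphosphate to cholesterol, 5 regulators and 5 genes of sterol transport and efflux. The first 18 are called the synthesis genes here. No gene of the list served as a marker when the cells were sorted into lineage gates.

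Cells build cholesterol from acetyl-CoA by way of mevalonate, isoprenoid diphosphates, squalene and lanosterol, and the isoprenoids also feed protein prenylation, ubiquinone and dolichol. SREBP2, the product of Srebf2, is held in the endoplasmic reticulum by SCAP and the INSIG proteins while sterol is plentiful, and is cut free to switch on the synthesis genes when sterol is scarce. Excess sterol is turned into oxysterols, which activate the LXR receptors and through them the exporters ABCA1 and ABCG1. In haematopoietic progenitors these exporters are known to restrain growth factor responses and proliferation.

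The library came from bone marrow of 1 naïve mouse and 1 mouse injected with lipopolysaccharide (LPS), a component of the outer membrane of bacteria. Series and sample descriptions name lineage-negative cKit+ progenitors and GMP-MoPs, a monocyte progenitor class, from both mice, and cMoPs from the naïve mouse. The sorted populations were marked with barcoded PE-streptavidin tags A961 to A965, pooled, captured on a BD Rhapsody device and amplified by TAS-Seq. The labels do not say which mouse or sorted population each tag marks, and give no strain, age or sex, so tags were set side by side by number and none was given a treatment.

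After a filter on cells, A963 held 4716 cells and A965 held 5567, while A961, A962 and A964 held 68, 104 and 73. The labels give 15000 loaded cells each for A963 and A965, and 100 each for A961, A962 and A964. A962 thus held more cells than were loaded, and whether cells of the small tags carry a wrong tag was not tested. The median total count per cell lay between 20430.5 in A963 and 27801 in A964, and no cell barcode was carried by more than 1 tag. Xist, the transcript of the inactive X chromosome, stood at 611 CPM, the counts scaled to equal totals, in A963 and 11.8 in A965. It stood at 486 in A961, 409 in A962 and 59.7 in A964. A difference between A963 and A965 may therefore go with mouse, treatment, sex or sorted population, which cannot be told apart. With 1 library and 1 mouse per state there is no replicate of any tag or gate, so differences carry no test. The ranges in parentheses are exact 95% intervals for counting error, and take in no spread between animals or between cells.

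Each cell was placed in a gate by the lineage marker list on which it scored highest, and 10 gates with at least 100 cells, 8677 cells in all, were described. The markers themselves, such as Hlf in the stem gate, Elane in the GMP gate (granulocyte-monocyte progenitors) or Siglech in the dendritic gate, are high there because of the gating, so the genes below are those among the leading 10 of each gate that were not markers. They included Ctla2a and Angpt1 in the stem gate, Ly6d and Cox6a2 in the lymphoid gate, Cavin2 and F2r in the megakaryocyte gate and Hba-a1 and Car2 in the erythroid gate. Prg2 and Epx were among those of the basophil/mast gate, Srgn and Prss57 of the GMP gate, S100a9 and Ifitm6 of the neutrophil gate and S100a4 and Ms4a4c of the monocyte gate. Cd7 and Spib were among those of the dendritic gate, and Apoe and Cd5l of the macrophage gate. Of the genes named here, Angpt1 was also among the leading 10 of the megakaryocyte gate, and Ly6d among those of the dendritic gate. Prg2 and Epx are known as eosinophil granule genes. Whether the gate called basophil/mast also holds eosinophil progenitors was not tested. Kit, which encodes the receptor used in the sort, stood at 109.8 CPM in A963 and 90.9 in A965 in the stem gate. In the monocyte gate it stood at 5.58 and 2.19, and in the neutrophil gate at 13.6 and 1.87, so those gates hold little mRNA of the sorting marker.

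The promoters of these genes are shown because SREBP factors act there together with the factors NF-Y and Sp1. RefSeq sequence on GRCm38.p6, from 250 bases before to 50 bases after the annotated start, was matched for 22 of the 28 genes. Some of these genes have alternative starts, which gave 30 windows in all. A matched gene was counted as holding a motif if any of its windows held it. The first 3 printed below belong to genes with the highest level in the dendritic gate in both large tags, described further on, and Idi1 is a mevalonate-step gene with a pair of CCAAT boxes next to its start. Capitals mark the sterol response element TCACNCCAC and the CCAAT box of NF-Y, both searched on both strands, so that ATTGG is the box on the reverse strand.
Hmgcs1: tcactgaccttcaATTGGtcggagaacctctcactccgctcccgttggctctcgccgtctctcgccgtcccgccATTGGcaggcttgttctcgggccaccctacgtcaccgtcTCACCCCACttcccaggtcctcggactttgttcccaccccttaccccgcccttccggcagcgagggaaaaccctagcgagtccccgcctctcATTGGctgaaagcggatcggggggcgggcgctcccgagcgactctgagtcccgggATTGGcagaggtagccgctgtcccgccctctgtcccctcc
Cyp51: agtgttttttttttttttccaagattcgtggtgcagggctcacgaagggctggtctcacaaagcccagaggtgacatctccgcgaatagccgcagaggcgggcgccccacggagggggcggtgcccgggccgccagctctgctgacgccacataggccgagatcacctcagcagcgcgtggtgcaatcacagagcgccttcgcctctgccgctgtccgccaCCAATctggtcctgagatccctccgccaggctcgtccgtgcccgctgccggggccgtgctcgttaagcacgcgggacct
Insig1: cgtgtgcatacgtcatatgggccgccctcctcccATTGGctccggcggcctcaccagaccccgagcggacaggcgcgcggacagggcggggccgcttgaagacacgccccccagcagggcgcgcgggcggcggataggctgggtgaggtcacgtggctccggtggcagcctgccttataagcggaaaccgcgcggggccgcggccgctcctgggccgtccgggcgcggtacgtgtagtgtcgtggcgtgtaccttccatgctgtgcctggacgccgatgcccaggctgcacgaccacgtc
Idi1: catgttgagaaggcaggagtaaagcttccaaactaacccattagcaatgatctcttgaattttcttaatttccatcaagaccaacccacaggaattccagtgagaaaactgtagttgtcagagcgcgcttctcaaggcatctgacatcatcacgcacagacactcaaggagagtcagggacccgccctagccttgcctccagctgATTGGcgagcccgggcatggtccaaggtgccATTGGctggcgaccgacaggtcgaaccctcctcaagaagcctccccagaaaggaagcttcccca
They lie at chr13:119690101-119690400 on the plus strand, chr5:4104648-4104947 on the minus strand, chr5:28071162-28071461 on the plus strand and chr13:8885356-8885655 on the plus strand. In Hmgcs1 the sterol response element begins 137 bases before the start, between CCAAT boxes that begin at 237, 176 and 45 bases before it, with one more at 10 bases after it.

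A CCAAT box was found in 19 of the 22 matched genes (86.4%), against 41.1% of 27025 genes in the same windows. It was missing from Acat2, Scap and Abca1. In Pmvk, Dhcr7, Insig2 and Srebf1 some windows held it and others did not. The GC box of Sp1, GGGCGG, was found in 21 of 22 (95.5%), with Pmvk the exception, against 38.2% of all genes. The sterol response element in the spelling TCACNCCAC occurred in Hmgcs1 alone, 1 of 22 (4.55%), against 1.44% of all genes. The E-box CACGTG, whose letters can overlap the end of that element, occurred in 6 of 22 (27.3%) against 8.09%. The promoter windows of Fdps, Fdft1, Sqle, Stard4, Abcg1 and Npc1 are not shown.

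Across the 10 gates the synthesis genes were highest in the dendritic gate, which joins plasmacytoid cells, the interferon-producing cells marked by Siglech and Bst2, with cells rich in MHC class II, the antigen-presenting molecules. Summed over the 18 genes the level there was 872 CPM (843 to 903) in A963 and 781 CPM (759 to 803) in A965. The next highest gate was the monocyte gate in A963, at 463 CPM, and the GMP gate in A965, at 539 CPM. The lowest was the neutrophil gate in A963, at 254 CPM, and the erythroid gate in A965, at 307 CPM. With the 50 most abundant genes left out of the totals the erythroid gate was the lowest in both tags.

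In A963 the stem gate stood at 357 CPM, the megakaryocyte gate at 359, the basophil/mast gate at 367, the GMP gate at 398 and the lymphoid gate at 427, with the erythroid and macrophage gates both at 318. In A965 the values were 359 in the stem gate, 475 in the megakaryocyte gate, 327 in the basophil/mast gate, 374 in the lymphoid gate, 338 in the neutrophil gate, 423 in the monocyte gate and 463 in the macrophage gate. The middle of the order thus differed between the tags, and its neighbours lie within a narrow band. Fdps, which makes farnesyl diphosphate at the branch to sterols, prenyl groups and ubiquinone, gave 38.9% of the summed counts over all cells and 49.0% in the GMP gate, so each sum is also given without it where that matters.

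**Figure D1:**
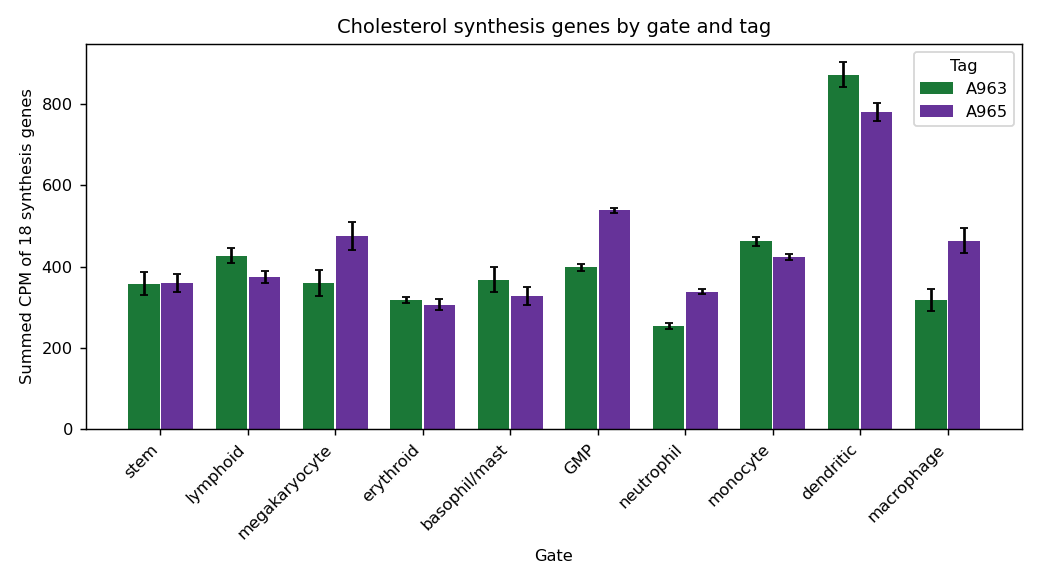
Summed level of the 18 synthesis genes, in CPM, for each of the 10 gates in tags A963 (green) and A965 (purple). Bars start at 0 and error bars are exact 95% counting intervals of 1 library; the dendritic gate is highest in both tags, at 872 and 781 CPM.

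In the dendritic gate over all other cells, the summed synthesis genes stood at 816 against 406 CPM, a 2.01-fold ratio (1.96 to 2.05). The ratio was 2.40 (2.31 to 2.49) within A963 and 1.80 (1.75 to 1.85) within A965, and 2.13 over both without Fdps. Of the 28 genes, 17 were at least 1.5-fold higher after 10 CPM was added to each level, and 0 were at least 1.5-fold lower, while 13.6% of all 8598 genes at 10 CPM or more passed the same threshold upward and 7.63% downward. Within A963 the counts were 16 higher and 0 lower, against 15.9% and 8.25% of all genes, and within A965 they were 16 and 0, against 13.8% and 8.25%. The median log2 ratio over the 28 genes was 0.72, against 0.11 over those 8598 genes. At least 10 CPM in the gate or outside it was reached by 24 of the 28 genes, so the median also holds 4 genes of low level. Over all tags, the 28 ratios were above 1 under each of 3 scalings, namely plain CPM, CPM with the 50 most abundant genes left out of the total, and median-of-ratios scaling. Within A963, under plain CPM, Abca1 at 0.336 and Srebf1 at 0.975 were below 1. The dendritic gate was picked out after the values were seen.

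Of the mevalonate steps, Hmgcs1, which condenses acetyl-CoA and acetoacetyl-CoA to HMG-CoA, stood at 65.6 CPM in A963 and 54.3 in A965 in the dendritic gate. Its next highest gate was the basophil/mast gate in A963, at 34.6, and the megakaryocyte gate in A965, at 33.8, and the erythroid gate was lowest at 6.17 and 4.59. The 2 tags placed the gate first by a wide margin, and its ratio to all other cells was 3.39-fold. Idi1, the isopentenyl diphosphate isomerase, stood at 76.9 and 57.0 CPM against 26.5 and 20.2 in the monocyte gate, a 2.56-fold ratio to all other cells. The megakaryocyte gate of A965 was level with it at 57.4 CPM, so Idi1 was not highest in the dendritic gate in both tags.

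The mevalonate kinase gene Mvk stood at 18.3 and 20.5 CPM in the dendritic gate, a 2.39-fold ratio to other cells. Mvd, which decarboxylates mevalonate diphosphate, stood at 14.8 and 22.7 CPM, a 2.28-fold ratio, and reached only 1.80 and 1.29 CPM in the erythroid gate. For both genes the dendritic gate was the highest in each tag. Fdps stood at 321 CPM in A963 and 272 in A965. The ratio of Fdps to the other cells was 2.62 in A963 but 1.48 in A965, where its level in the GMP gate was 273 CPM. Pmvk, the phosphomevalonate kinase gene, had its highest level in the erythroid gate, at 45.5 and 45.1 CPM, with the dendritic gate next at 37.5 and 39.2 (1.77-fold). Acat2, a cytosolic acetoacetyl-CoA thiolase gene, showed 22.4 and 20.2 CPM in the dendritic gate (1.59-fold), within the range of 19.8 to 25.3 seen in the stem gate.

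Of the sterol steps, Cyp51, the lanosterol demethylase gene, had the largest dendritic ratio of the list. It stood at 45.6 CPM in A963 and 41.3 in A965, against 20.8 and 17.5 in the lymphoid gate and 3.93 and 4.30 in the neutrophil gate. Over all other cells that was 43.3 against 8.74 CPM, a 4.95-fold ratio (4.46 to 5.48). Sqle, the squalene epoxidase gene, stood at 29.9 and 27.2 CPM and its ratio was 3.28-fold, although the megakaryocyte gate of A965 reached 28.1 CPM. Msmo1, the methyl sterol oxidase gene, stood at 37.0 and 38.1 CPM (2.51-fold), and Fdft1, the squalene synthase gene, at 39.7 and 40.4 CPM (2.40-fold). Both were highest in the dendritic gate in each tag.

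Sc5d, the lathosterol oxidase gene, stood at 31.8 and 29.9 CPM in the dendritic gate (2.18-fold), again the highest of the gates. Nsdhl, a sterol dehydrogenase gene, was highest there too, at 14.8 and 15.3 CPM (1.71-fold), but lost that place when the 50 most abundant genes were left out of the totals. Nsdhl did not pass the 1.5-fold threshold with 10 CPM added, nor did Acat2 among the mevalonate genes. Lss (2.39-fold), Dhcr7 (2.18-fold), Hsd17b7 (1.91-fold), Tm7sf2 (1.25-fold) and Ebp (1.24-fold) did not pass it either. Lss makes lanosterol, Dhcr7 the last reduction to cholesterol, and Hsd17b7, Tm7sf2 and Ebp work on the sterol nucleus between them. Ebp, the sterol isomerase gene, was highest in the monocyte gate, at 81.0 and 88.5 CPM, with the dendritic gate at 76.1 and 68.8.

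**Figure D2:**
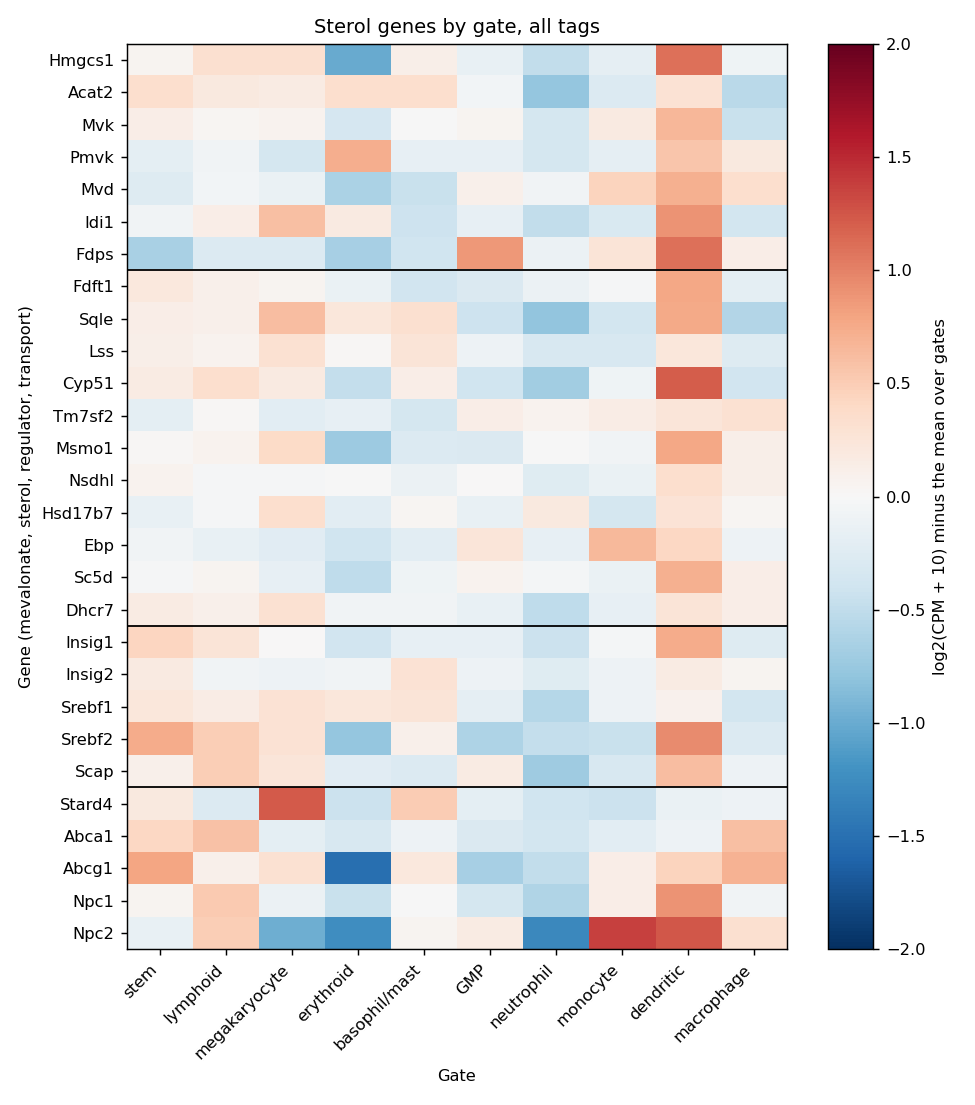
Level of each of the 28 genes (rows, in blocks of mevalonate, sterol, regulator and transport genes) in each of the 10 gates (columns), over all tags, as log2(CPM + 10) minus that gene's mean over the gates. Red is above the gene's own mean and blue below it; over all tags, the 28 genes exceed in the dendritic gate their level in the other cells under 3 scalings, while within A963 Abca1 and Srebf1 do not.

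Among the regulators, Srebf2 stood at 107 CPM in A963 and 90.4 in A965 in the dendritic gate, followed by the stem gate at 75.5 and 87.2. The lymphoid gate stood at 68.01 and 67.1 CPM and the megakaryocyte gate at 68.2 and 48.5, and the remaining gates lay between 22.3 and 57.7, with the erythroid gate lowest in both tags. The ratio to all other cells was 2.98-fold in the dendritic gate, 2.44-fold in the stem gate and 2.04-fold in the lymphoid gate. Insig1, itself a target of SREBP2, was likewise highest there, with 29.7 and 24.3 CPM in the dendritic gate (2.84-fold), 15.7 and 21.3 in the stem gate and 18.5 and 13.03 in the lymphoid gate. Scap, the escort of SREBP, stood at 21.3 and 30.4 CPM (2.25-fold), close to the lymphoid gate at 24.1 and 24.3.

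Srebf1 and Insig2 did not pass the threshold in the dendritic gate. Srebf1, whose product mainly serves fatty acid synthesis, stood at 18.1 and 24.5 CPM in the dendritic gate, a 1.27-fold ratio over all tags and 0.975 within A963. Insig2, the INSIG gene not driven by SREBP2, stood at 15.9 and 13.7 CPM (1.42-fold). Of 12 fatty acid synthesis genes, 1 was at least 1.5-fold higher in the dendritic gate and 0 lower, with a median log2 ratio of 0.10 against 0.11 over all genes. That gene was the desaturase Fads2, at 61.3 against 17.4 CPM. Fads1 stood at 22.7 against 12.4 CPM, and the elongase Elovl6 at 23.0 against 13.5.

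Of 11 enzymes that use isoprenoids for prenylation, ubiquinone or dolichol, 0 were past 1.5-fold in either direction in the dendritic gate, and their median log2 ratio was 0.12. The nearest were Icmt, the prenylcysteine methyltransferase gene, at 15.2 against 8.90 CPM, Coq2 at 25.2 against 17.1 and Ggps1, which makes geranylgeranyl diphosphate, at 19.7 against 13.3. Of 12 S phase genes 0 were higher and 2 lower in the dendritic gate, and of 12 G2/M genes 2 were higher, Ube2c and Cenpf. The summed S phase level was 1462 CPM there and 3575 CPM in the erythroid gate. The summed G2/M level was 2729 CPM in the dendritic gate and 3257 in the erythroid gate. Their part in the result was not tested.

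Transport and efflux genes did not share one gate. Npc1, the lysosomal membrane exporter of cholesterol, was highest in the dendritic gate, at 27.2 and 24.8 CPM, against 17.98 and 16.7 in the lymphoid gate and 2.90 and 2.34 in the neutrophil gate, and its ratio to all other cells was 3.88-fold. Npc2, its soluble partner in the lysosome, was highest in the monocyte gate, at 1084 CPM in A963 and 1162 in A965, with the dendritic gate at 930 and 1108. Outside these it lay between 155 CPM, in the neutrophil gate of A963, and 635 CPM, in the lymphoid gate of A965. The monocyte ratio of Npc2 to all other cells was 2.74-fold, and the erythroid ratio 0.316.

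Stard4, a cytosolic sterol carrier, was highest in the megakaryocyte gate, at 104 and 81.7 CPM, a 3.49-fold ratio to all other cells. The basophil/mast gate followed at 60.4 and 48.0 CPM, and every other gate lay between 20.4 and 43.3. In the megakaryocyte gate Idi1 was 1.92-fold and Srebf2 1.68-fold above other cells, while Npc2 stood at 0.415. Counted over the list, 5 of 28 genes were at least 1.5-fold higher in the megakaryocyte gate and 2 lower, against 14.8% and 10.3% of all genes.

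The exporters were highest in the stem gate in A963 and in the macrophage gate in A965. Abcg1 stood at 43.0 and 46.2 CPM in the stem gate and at 27.2 and 51.8 in the macrophage gate, and at 1.32 and 1.15 in the erythroid gate. In A963 the basophil/mast gate, at 29.9, also lay above the macrophage gate. The erythroid ratio of Abcg1 was 0.0721 (0.0521 to 0.0972), the lowest ratio of any of the 28 genes in that gate. Abca1 was sparse, with 7.97 and 12.1 CPM in the lymphoid gate, 8.71 and 7.33 in the stem gate, 2.32 and 18.1 in the macrophage gate and at most 4.07 CPM elsewhere. In the dendritic gate Abcg1 stood at 27.2 and 35.3 CPM, a 2.19-fold ratio to all other cells, Stard4 at 30.2 CPM in both tags (1.11-fold) and Abca1 at 0.540 and 3.34 CPM. The macrophage values of both exporters differed between the tags, and that gate held 90 cells of A963 and 86 of A965. Of 11 oxysterol-response and sterol-handling genes, 3 were at least 1.5-fold higher in the macrophage gate and 0 lower, against 3.67% and 3.25% of all genes, and their median log2 ratio was -0.05 against -0.08 over all genes. Those with the largest ratio were Apoe, the apolipoprotein that carries exported sterol, at 1133 against 63.0 CPM, the LXR gene Nr1h3 at 30.2 against 1.05 and the lysosomal lipase gene Lipa at 59.6 against 31.3.

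In both large tags 11 of 28 genes were highest in the dendritic gate, against 7.15% of the 10248 genes ranked. They were Hmgcs1, Mvk, Mvd, Fdft1, Cyp51, Msmo1, Nsdhl, Sc5d, Insig1, Srebf2 and Npc1, and the count was 10 with the 50 most abundant genes left out of the totals, against 5.66% of all genes under that scaling. The erythroid gate was lowest in both tags for 5 genes, Hmgcs1, Mvd, Sc5d, Srebf2 and Abcg1, against 15.4% of all genes. With the abundant genes left out it was lowest for 8 genes, those 5 with Insig1, Npc1 and Npc2, against 19.1%. Over all other cells it held 7 of 28 genes at least 1.5-fold lower and 1, Pmvk, higher, against 23.1% and 21.1% of all genes.

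In the stem gate 3 of 28 genes, Srebf2, Abca1 and Abcg1, were at least 1.5-fold higher than in all other cells and 1, Fdps, was lower, against 15.5% and 9.02% of all genes. The lymphoid gate held 4 higher and 1 lower, against 13.03% and 9.36%. The higher ones were Srebf2 at 67.8 against 33.2 CPM, Scap at 24.1 against 11.97, Npc1 at 17.3 against 6.83 (2.53-fold) and Abca1 at 10.1 against 1.49 (6.78-fold), and the lower one was Fdps at 104.6 against 166. The basophil/mast gate held 1 higher, Stard4, and 1 lower, Fdps, against 12.8% and 7.53%. The GMP gate held 1 higher, Fdps, and 0 lower, against 4.99% and 5.91%. In the neutrophil gate 0 were higher and 5 lower, Acat2, Sqle, Cyp51, Scap and Npc2, against 6.38% and 44.7%. The monocyte gate held 2 higher, Ebp and Npc2, and 0 lower, against 9.65% and 5.91%. The macrophage gate held 2 higher, Abca1 and Abcg1, and 0 lower, against 3.67% and 3.25%. Over all other cells and under the scalings that leave out abundant genes or use median ratios, the summed synthesis genes stood at 1.14 in the GMP gate, at 1.001 or 1.01 in the neutrophil gate and between 0.612 and 0.997 in the remaining gates other than the dendritic one.

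Seen cell by cell, with each cell thinned to 8800 counts, the dendritic gate held a median of 5 counts of synthesis genes per cell (quartiles 2 and 10), against medians of 2 to 4 in the other gates. The upper tail set it apart, since 1 cell in 10 of the dendritic gate held 18 counts or more. Cells with no such count made up 5.77% of the gate. The median total count per cell before thinning was 14458 in the dendritic gate, the lowest of the 10, and 42394 in the erythroid gate.

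**Figure D3:**
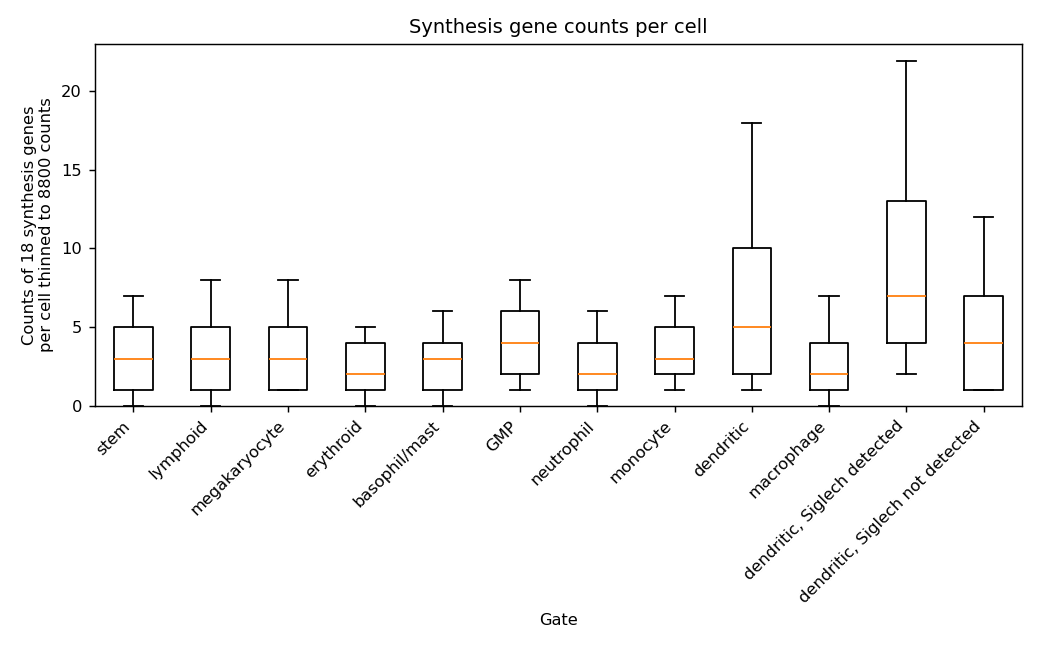
Counts of the 18 synthesis genes per cell, after thinning each cell to 8800 counts, for the 10 gates and for the dendritic gate divided by detection of Siglech. The line in each box is the median, the box spans the quartiles and the whiskers the 10th and 90th percentiles of cells of 1 library; the dendritic median is 5, and 7 where Siglech was detected.

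The dendritic gate was divided by whether a cell held any count of Siglech, a division made after the first results were seen. The 322 cells with Siglech had 2770 CPM of Bst2 and 2918 CPM of class II genes, and the 285 cells without it had 378 CPM of Bst2 and 19114 CPM of class II genes. Siglech is a marker of the gate, so a cell without it had to join on other markers. The class II difference may thus follow from the gating and is no separate support for the division. Detection also depends on depth, and median totals were 13336 and 15908 counts. The summed synthesis genes stood at 1005 CPM (977 to 1033) with Siglech and 628 CPM (607 to 650) without it, a 1.60-fold ratio (1.53 to 1.67). In A963 the sums were 1040.2 and 649.7 CPM, and in A965 they were 973 and 618, so both tags showed the difference.

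Of the 28 genes, 13 were at least 1.5-fold higher with Siglech and 0 lower, against 12.1% and 6.94% of all genes. The count higher was 9 in A963 and 13 in A965, against 19.8% and 11.4% of all genes there, and 0 were lower in either, against 9.48% and 6.90%. Hsd17b7, a sterol ketone reductase gene, stood at 14.7 against 1.38 CPM, a 10.6-fold ratio with a wide interval of 4.91 to 27.4. Npc1 stood at 38.4 against 12.8 CPM (3.003-fold), Scap at 39.0 against 14.8 (2.64-fold) and Insig1 at 37.2 against 14.97 (2.49-fold). Msmo1 stood at 53.5 against 22.5 CPM and Idi1 at 87.2 against 41.6.

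Srebf2 did not share the division, at 93.7 CPM with Siglech and 99.5 without it, a ratio of 0.942 (0.829 to 1.07). Abcg1 stood at 32.7 against 33.7 CPM, Stard4 at 29.5 against 30.7 and Npc2 at 961.7 against 1127. Cyp51, at 50.9 against 35.6 CPM, was far above its 8.74 CPM in other cells in both subsets. Of 12 S phase genes 11 were also at least 1.5-fold higher with Siglech, among them Mcm6 at 139.9 against 56.7 CPM, and their part in the difference was not tested. Apoe ran the other way, at 31.3 against 307 CPM.

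**Figure D4:**
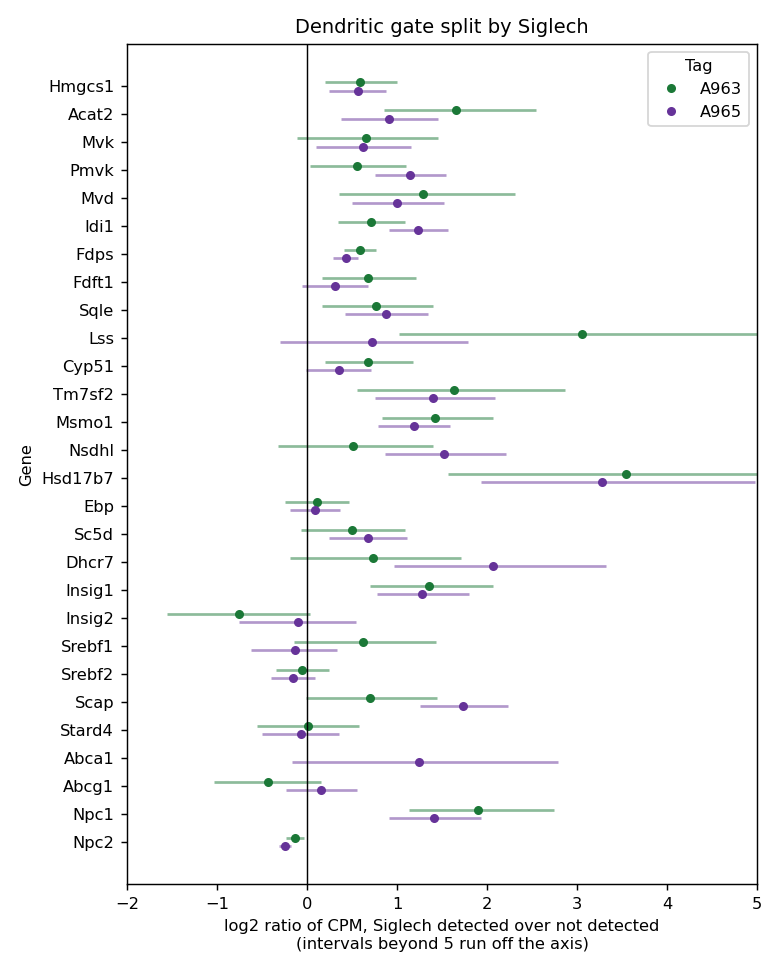
log2 ratio of CPM, cells with Siglech detected over cells without it, for each of the 28 genes within the dendritic gate, in A963 (green) and A965 (purple), with exact 95% counting intervals of 1 library as lines. Hsd17b7, Npc1, Msmo1 and Insig1 lie to the right in both tags, Srebf2 lies near 0, and Abca1 has no ratio in A963 because it was at 0 without Siglech.

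The neutrophil gate, which holds cells of the secondary and tertiary granule stages, had a lower level of the synthesis genes than the GMP gate. The sums were 312 against 493 CPM, a ratio of 0.632 (0.621 to 0.643). The 50 most abundant genes took 48.1% of all counts in the neutrophil gate and 25.2% in the GMP gate. With those genes left out of the totals the ratio was 0.911, and with median-of-ratios scaling 0.904. The median of the 5700 genes at 10 CPM or more in both gates stood at -0.52 on the log2 scale under plain CPM. Relative to that median, 13 of the 28 genes were higher and 15 lower or equal, against 5 higher under plain CPM.

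Under plain CPM, 4 of 28 genes were at least 1.5-fold lower in the neutrophil gate and 0 higher, against 42.3% and 6.12% of all genes. Within A963 the counts were 3 lower and 0 higher, against 39.6% and 7.81% of all genes, and within A965 they were 4 and 0, against 44.1% and 5.54%. The 4 genes over both tags were Acat2 at 5.31 against 15.4 CPM, Fdps at 118 against 242, Scap at 4.81 against 16.9 and Npc2 at 171 against 485. Hsd17b7 at 6.996 against 3.37 CPM, Msmo1 at 17.9 against 13.1, Fdft1 at 17.0 against 14.0, Srebf2 at 29.5 against 25.9 and Abcg1 at 12.6 against 10.2 were higher in the neutrophil gate under plain CPM as well. The sum of the mevalonate genes had a ratio of 0.537 (0.525 to 0.549) under plain CPM and 0.769 relative to the median gene. The sum of the genes after farnesyl diphosphate had a ratio of 0.841 (0.817 to 0.865) under plain CPM, and its direction turned to 1.20 relative to the median gene. The neutrophil gate was lowest of the gates in both tags for 9 of 28 genes, against 40.6% of all genes, and for 2, Dhcr7 and Scap, with the abundant genes left out, against 22.6% under that scaling.

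Between the tags, the summed synthesis genes stood at 379.7 CPM in A963, 447 in A965, 450.3 in A961, 414 in A962 and 373 in A964. The ratio of A965 to A963 was 1.18 (1.16 to 1.19), and 1.04 without Fdps. With 10 CPM added, as in all counts between the tags, 0 of the 28 genes were 1.5-fold higher or lower in A965, where 1.93% of all genes were higher and 2.54% lower. By the plain ratio Mvd was past 1.5-fold, at 6.28 CPM in A963 and 10.8 in A965 (1.72, from 1.58 to 1.87). The 2 tags held different mixtures of gates, with 600 erythroid cells in A963 and 149 in A965, so the values within gates follow.

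In the GMP gate the sum stood at 398 CPM in A963 and 539 in A965, a ratio of 1.35 (1.32 to 1.39), and 1.21 without Fdps. With 10 CPM added Fdps alone passed the threshold, at 178 CPM in A963 and 273 in A965, a 1.53-fold ratio, against 1.04% of all genes higher and 0.395% lower. The pass was narrow, at a log2 ratio of 0.586 with 10 CPM added. The median of the 7288 genes at 10 CPM or more in both tags stood at 0.0665 on the log2 scale, so the pass depends on the scaling. Hmgcs1 stood at 13.3 and 21.01 CPM, a plain ratio of 1.58 (1.39 to 1.80), and Lss at 2.09 and 3.22, a plain ratio of 1.54. Idi1 stood at 20.05 and 28.3 CPM and Msmo1 at 10.1 and 14.6, while Npc2 was lower in A965, at 549 and 450 CPM. Kit stood at 37.6 CPM in A963 and 18.6 in A965, and the mitotic gene Mki67 at 173 and 246. The part of progenitor stage and cycling in this ratio was not tested.

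In the neutrophil gate the sum stood at 254 CPM in A963 and 338 in A965, a ratio of 1.33 (1.29 to 1.37) that came to 1.09 without Fdps. Fdps stood at 72.4 CPM in A963 and 140.2 in A965, a 1.94-fold ratio (1.83 to 2.05), and was the 1 gene of the list past the threshold, against 1.75% of all genes higher and 0.701% lower. Mvd stood at 4.42 and 8.60 CPM, a ratio of 1.95 at a low level. The sterol sum differed little, with a ratio of 1.03 (0.984 to 1.08). Kit was 13.6 CPM in A963 and 1.87 in A965 in this gate, and its part in the ratio was not tested.

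In the monocyte gate the order was turned, with 463 CPM in A963 and 423 in A965, a ratio of 0.914 (0.887 to 0.943), and 0.996 without Fdps. Fdps stood at 182 and 143 CPM (0.789), Sqle at 10.3 and 6.42 (0.624), Cyp51 at 15.1 and 9.90 (0.656) and Srebf2 at 37.9 and 27.0 (0.714). Abcg1 went the other way, at 19.0 CPM in A963 and 28.7 in A965, a 1.51-fold ratio. Outside the list, Apoe stood at 42.6 and 106 CPM there, Nr1h3 at 0.572 and 2.34 and Lipa at 48.5 and 80.6. None of the 28 passed the threshold after 10 CPM was added, where 3.03% of all genes were higher and 0.785% lower.

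In the small tags, the monocyte gate held 39 cells of A961, 17 of A962 and 30 of A964, with sums of 428 (390.2 to 469), 375 (317 to 440) and 367 (327 to 412) CPM. The intervals of all 3 overlap each other. Npc2 over all cells stood at 865 CPM in A961, 696 in A962 and 886 in A964, above 476 in A963 and 535 in A965. Within the monocyte gate Npc2 was 1121, 1368 and 1258 CPM in the small tags, against 1084 and 1162 in the large ones.

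In the dendritic gate the sum stood at 872 CPM in A963 and 781 in A965, a ratio of 0.895, and none of the 28 genes passed the threshold, against 1.24% of all genes higher and 2.05% lower. In the stem gate 1 gene passed, Ebp at 31.4 and 59.0 CPM, against 2.98% of all genes higher and 4.54% lower. In the lymphoid and erythroid gates none passed, against 0.908% and 0.541% higher and 1.32% and 0.216% lower.

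**Figure D5:**
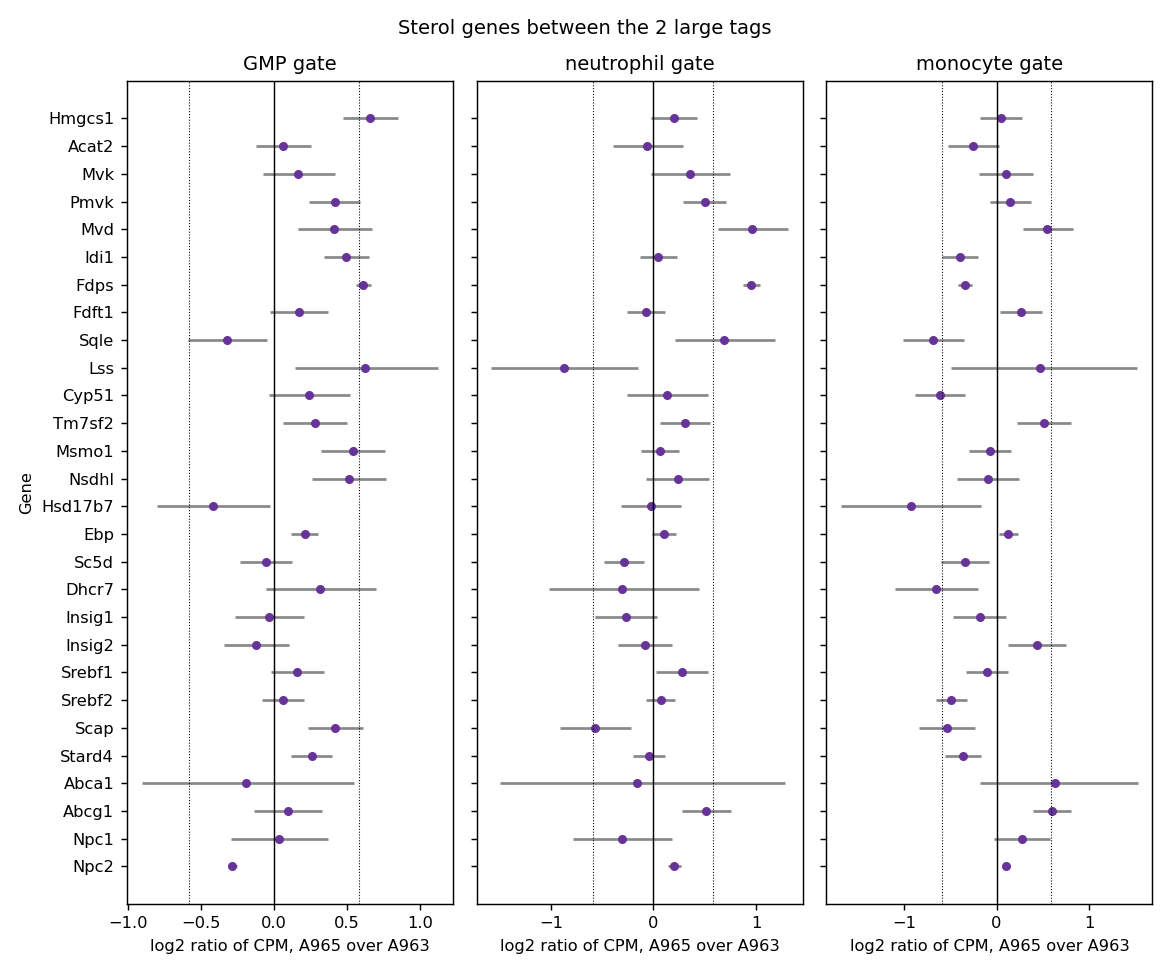
log2 ratio of CPM, A965 over A963, for each of the 28 genes in the GMP, neutrophil and monocyte gates. Points are ratios, lines exact 95% counting intervals of 1 library, dotted lines mark 1.5-fold; Fdps lies at or beyond the right dotted line in the GMP and neutrophil gates and left of 0 in the monocyte gate.

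Several of these genes share sequence with others, and the strand use of the authors' counting is not given in the sources used here. Fdps, on chromosome 3 from 89093588 to 89101959 of GRCm38, minus strand, shares 929 bases at 100% identity with Gm43738. That gene had 4398 counts against 50146 for Fdps. Gm43738 stood at 6.63 CPM in A963 and 11.5 in A965 in the neutrophil gate. It stood at 17.0 and 23.1 in the GMP gate and at 17.1 and 13.2 in the monocyte gate. These directions are those of Fdps, but with the shared bases its counts may come from the same transcripts. They are therefore not a separate observation. Idi1 shares 684 bases with the pseudogene Gm13502, Acat2 1477 bases with Acat3, Fdft1 774 bases with Ctsb and Tm7sf2 532 bases with Vps51. The bases shared with Ctsb and with Vps51 are at 100% identity. Ctsb had 90019 counts against 5383 for Fdft1, and Vps51 had 9759 against 3448 for Tm7sf2. Acat2 also shares 445 bases with Tcp1, which had 73897 counts against 4331 for Acat2. Npc1 shares 323 bases at 100% identity with Rmc1, which had 3805 counts against 2243 for Npc1. The levels of these members are uncertain to that extent.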

How the data were processed

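Per the labels, the file holds 3' mRNA counts per gene and cell of 1 library, with the tag in each cell's name; the counts were deposited by the authors as whole numbers. Seurat 4.2.0, R 4.2.1 and the GRCm38 build are named in the submitters' processing notes, and the aligner, annotation and counter are not given in the sources used here. Values of 2 were 54.7% as frequent as values of 1, and whether counts are molecules or reads is not stated. The intervals treat each count as independent and cover counting error only. If the counts are reads, the intervals are too narrow even for that. Cell totals ran from 8822 to 140994 and summed to 301445942.

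Of 10731 columns, 190 doublets and 6 cells without a tag, as named by the authors, were not used. A minimum of 500 genes and a maximum of 20% mitochondrial counts per cell removed 7 and left 10528. Scrublet, in scanpy 1.11.5, called 223 of them doublets (2.12%); they were kept, and removed as an alternative.

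Each of 12 marker lists (65 genes, 1 of them missing from the table) was scored as the mean z-score of log-scaled counts after scaling cells to equal totals. A cell joined the list with its highest score if that was at least 0.5, led the next list by 0.25 and rested on 2 detected markers; 1731 cells joined none. In the dendritic gate 44 cells (7.25%) lay within 0.1 of a threshold. Levels are CPM of the counts added up over a group's cells, with exact Poisson intervals, and exact conditional binomial intervals for ratios. A gene was past the threshold at 1.5-fold with 10 CPM added. The code was checked on simulated data. Python 3.11.15, numpy 2.4.6, scipy 1.17.1 and pandas 2.3.3 were used.

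All 28 genes are named, and of each other list at most the 3 with the largest ratio. The genes and lists were chosen with earlier results of these data known; gate thresholds, the dendritic comparison, the Siglech division and the alternatives within 1 tag or without Fdps were chosen after the data were seen.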

Additional observations from a re-analysis of the deposited data

Results flagged for a closer look

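Fdps, the farnesyl diphosphate synthase gene, was flagged because its ratio between the large tags had opposite directions in different gates. Other genes of the list showed this too. The ratio of Idi1 was 1.41 in the GMP gate and 0.762 in the monocyte gate. For Sqle it was 1.61 in the neutrophil gate and 0.624 in the monocyte gate. The Fdps ratio of A965 to A963 was 1.94 in the neutrophil gate, from 72.4 to 140.2 CPM. In the lymphoid gate it was 0.782, from 118 CPM in A963 to 92.6 in A965. The difference between the gates was not tested, since there is 1 library. The neutrophil gate was singled out after its values were seen.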

How the results depend on the processing

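No paired analysis was possible because the labels give 1 sample and no replicate numbers. Of 75 recomputed values, 51 moved by less than their counting interval or, for counts of genes, by less than 1.5 times. A further 24 moved by more and 0 turned direction, and the cause was not tested. Values outside those 75 did cross 1. Over all other cells, the summed synthesis genes under plain CPM stood at 0.694 in the neutrophil gate, 1.04 in the monocyte gate and 1.003 in the megakaryocyte gate. With the abundant genes left out these were 1.001, 0.937 and 0.939, and with median-of-ratios scaling 1.01, 0.968 and 0.871. The sterol sum of neutrophil over GMP went from 0.841 to 1.20. With the 50 most abundant genes left out of the totals, the neutrophil to GMP ratio moved from 0.632 to 0.911, the A965 to A963 ratio from 1.18 to 1.21 over all cells and from 1.33 to 1.28 in the neutrophil gate, and the dendritic ratio from 2.01 to 1.80. Median-of-ratios scaling gave 0.904 for neutrophil to GMP, 1.23 for the tags over all cells, 1.29 (from 1.35) in the GMP gate, 0.953 (from 0.914) in the monocyte gate and 1.84 for the dendritic gate. Thinning every cell gave 1.12, 1.43, 0.819 and 2.20 for the tags over all cells, in the GMP gate and in the monocyte gate, and for the dendritic gate. A stricter gate gave 0.616 for neutrophil to GMP, and gates made from thinned cells 0.885 for the tags in the monocyte gate. Without Fdps the ratios were 0.767 for neutrophil to GMP, 1.04, 1.21, 1.09 and 0.996 for the tags over all cells and in the GMP, neutrophil and monocyte gates, and 2.13 for the dendritic gate. A963 alone gave 2.40 and A965 alone 1.80 for the dendritic gate. With 1 CPM added, 1 gene, Mvd, was 1.5-fold higher in A965 over all cells, against 0 with 10 CPM. The count of genes 1.5-fold higher in the dendritic gate lay between 16 and 22 in place of 17. Genes under 10 CPM, such as Abca1 and Lss, rest on few counts, and a single library gives no spread between animals.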
